A study of Mus musculus with 4 samples.

Results

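The Cyp4 genes described here are the mouse Cyp4a, Cyp4f and Cyp4v cytochromes P450 that hydroxylate fatty acids: Cyp4a10, Cyp4a12a, Cyp4a12b, Cyp4a14, Cyp4a31, Cyp4a32, Cyp4f13, Cyp4f14, Cyp4f15 and Cyp4v3. These 10 genes were taken by the gene symbol of the array platform. A probe set with 1 symbol was present for 8 of them, in a table of 19938 such genes. All 8 exceeded the filter on low values and were among the 11963 genes tested. Cyp4a32 and Cyp4v3 lie only on probe sets that carry several symbols, so no value is given for either gene.

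RNA from mouse liver was hybridised to 4 Affymetrix Mouse Gene 1.0 ST arrays, and the values are on the log2 scale. The WT group carried wild type SIRT6, a chromatin-bound deacetylase, and the KO group was SIRT6Co/Co ;Alb-Cre, a conditional allele with Cre driven in hepatocytes by the albumin promoter, which leaves the other liver cells their allele. Each genotype was sampled at 2 and at 8 months of age, and each array received the combined RNA of 3 mouse pairs, so each group is 1 array. The labels state neither the sex of the mice, nor their feeding state, nor whether controls carried Cre.

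The Sirt6 probe set read 4.55 and 4.50 in WT and 4.54 and 4.46 in KO at 2 and 8 months. No source used here gives the exons it covers, and it cannot serve as a check of the labels, and the arrays are called WT-labelled and KO-labelled. The hepatocyte product Alb read 12.52 to 12.60 on the 4 arrays, and the median of all probe sets ran from 3.52 to 3.58. Of 7 markers of kidney, another tissue rich in Cyp4 enzymes, 1 exceeded the filter, Aqp2, at 4.42 to 4.72, and Kap lay at 2.25 to 2.32.

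Cyp4 enzymes sit in the endoplasmic reticulum and place a hydroxyl group on the terminal (omega) carbon of fatty acids and eicosanoids. Electrons reach them from NADPH through a reductase, helped by cytochrome b5. Alcohol and aldehyde dehydrogenases then turn the product into a dicarboxylic acid, which peroxisomes shorten. In mouse liver Cyp4a10 and Cyp4a14 are classic targets of PPAR alpha, the fatty acid receptor, and Cyp4a12 is known as a male-predominant enzyme that forms 20-hydroxyarachidonic acid. Cyp4f enzymes are known for leukotrienes and the side chains of vitamins E and K.

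Promoter sequences are shown because the 3 Cyp4f genes, none of which passed the test of genotype, share a short block at nearly the same place. The RefSeq promoter table of GRCm38.p6 held 5 of the 10 genes: Cyp4a32, Cyp4f13, Cyp4f14, Cyp4f15 and Cyp4v3. Not matched were Cyp4a10, Cyp4a12a, Cyp4a12b, Cyp4a14 and Cyp4a31. Each line below gives 60 bases, 5′ to 3′ on the gene's strand, from 110 to 51 bases before an annotated transcription start. Capitals mark GGATTGG in the Cyp4f genes and ATTGG, the inverted CCAAT sequence, in Cyp4a32. The windows are chr17:32685549-32685608 on the plus strand for Cyp4f15, chr17:32917380-32917439 on the minus strand for Cyp4f14, chr17:32947412-32947471 on the minus strand for Cyp4f13 and chr4:115600828-115600887 on the plus strand for Cyp4a32.
Cyp4f15: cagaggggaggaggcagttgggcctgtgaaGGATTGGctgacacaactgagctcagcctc
Cyp4f14: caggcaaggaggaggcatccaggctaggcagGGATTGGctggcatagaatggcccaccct
Cyp4f13: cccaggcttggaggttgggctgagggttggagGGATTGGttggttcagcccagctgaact
Cyp4a32: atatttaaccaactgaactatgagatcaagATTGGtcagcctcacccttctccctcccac

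The block GGATTGG began 80, 79 and 78 bases before the start in Cyp4f15, Cyp4f14 and Cyp4f13, and ATTGG began 80 bases before it in Cyp4a32. It was picked after the sequences were compared, and for Cyp4f14 the start shown is the one of 4 annotated starts where the block lies closest to its place in the other genes. Over 32851 promoters of 300 bases, searched on both strands, 4.72% held GGATTGG and 37.4% held ATTGG, which GGATTGG contains. The direct repeat of AGGTCA with 1 base between its copies, of the kind PPAR alpha binds, was in 0 of the 5 genes' promoters and in 0.0396% of all. A single AGGTCA was in 0 of the 5 and in 16.3% of all. With the exact repeat in 13 of the 32851 promoters, 0 of 5 was nearly certain in advance. The promoters reached 250 bases upstream, and Cyp4a10, Cyp4a14 and Cyp4a31 were not among them. The search therefore cannot tell whether the Cyp4 genes hold a site for PPAR alpha. These matches describe letters in the windows.

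Within the Cyp4a group the KO-labelled arrays separated the genes into 3 that fell, 1 that rose and 1 that did not pass the test, whereas none of the 3 Cyp4f genes passed. The test was limma's moderated fit of genotype and age to all 4 arrays, with Benjamini-Hochberg adjustment over the 11963 genes and a threshold of 0.05. Its error comes from the departure from additivity, 1 residual degree of freedom, moderated across genes, and it measures no spread between pools or animals of a group. Genes called lower made up 4.26% of all genes tested, genes called higher 6.81% and called genes in either direction 11.1%. Of the 8 Cyp4 genes, 3 were called lower and 1 higher, and 6 had an unadjusted p under 0.05, as had 25% of all genes tested.

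Cyp4a10, which hydroxylates medium-chain fatty acids such as laurate, read 10.07 at 2 months and 10.55 at 8 months with the WT label, against 8.58 and 8.59 with the KO label. Both KO-labelled values lay below both WT-labelled values, with a gap of 1.49 between the nearest. The level was 2.81-fold lower at 2 months and 3.89-fold lower at 8 months. The mean difference of Cyp4a10 was -1.72 log2 units (SE 0.10, 2 arrays per genotype, limma adjusted p = 2.31e-07), the ninth lowest difference of all genes tested.

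Cyp4a31, a close neighbour and paralog of Cyp4a10, read 8.08 and 8.67 on the WT-labelled arrays against 6.99 and 6.76 on the KO-labelled ones. The genotypes did not overlap, and the KO-labelled level was 2.14-fold lower at 2 months and 3.77-fold lower at 8 months. The mean difference of Cyp4a31 was -1.50 (SE 0.14, limma adjusted p = 1.84e-05), the 15th lowest difference. These genes are close in sequence, and a probe set that carries the symbols Cyp4a32, Cyp4a31 and Cyp4a10 shows that the platform itself does not keep all their probes apart. It read 10.59, 10.88, 9.07 and 8.83 on the younger and older WT-labelled and then the younger and older KO-labelled array, so that KO minus WT was -1.52 and -2.05. How much of each value comes from the other genes was not tested.

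Cyp4a14, also a PPAR alpha-induced omega-hydroxylase, read 10.87 and 11.05 on the WT-labelled arrays against 10.28 and 10.23 on the KO-labelled ones. The KO-labelled arrays were the lower at both ages, by 1.51-fold at 2 months and 1.76-fold at 8 months. Cyp4a14 fell by 0.71 on average (SE 0.08, limma adjusted p = 8.52e-05). These 3 genes were at least 1.5-fold lower at each age, as were 2.39% of all genes tested at 2 months, 1.93% at 8 months and 1.06% at both. With the array medians aligned, Cyp4a14 was no longer past 1.5-fold at 2 months, which left 3 of the 8 Cyp4 genes past it at 2 months and 2 at both ages. Counting both directions, 4 of the 8 Cyp4 genes were past 1.5-fold at 2 months, with 6.37% of all genes, and 3 at 8 months, with 4.34% of all genes. At both ages in the same direction it was 3 of 8, with 2.84% of all genes.

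Cyp4a12b moved in the other direction. It encodes a near-identical copy of the arachidonate omega-hydroxylase Cyp4a12a and read 10.13 and 10.31 on the WT-labelled arrays against 10.87 and 10.80 on the KO-labelled ones. The KO-labelled values were the higher, by 1.66-fold at 2 months and 1.40-fold at 8 months. Cyp4a12b rose by 0.61 on average (SE 0.08, limma adjusted p = 0.000342). It was past 1.5-fold at 2 months, as were 3.98% of all genes. It stayed short of it at 8 months, where 2.41% of all genes were that much higher, so that 0 of the 8 Cyp4 genes were higher by 1.5-fold at both ages, a state of 1.78% of all genes.

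Cyp4a12a itself read 10.67 and 10.71 on the WT-labelled arrays against 10.92 and 10.84 on the KO-labelled ones. KO minus WT was 0.24 and 0.13, in the direction of Cyp4a12b, and did not pass (limma adjusted p = 0.143). Under cyclic loess scaling it passed, with 0.18 and an adjusted p of 0.0282. The probes of these copies may not separate them, and whether the genes differ from each other was not tested.

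The Cyp4f genes lay close together across the arrays. Cyp4f14, known for omega-hydroxylation of leukotriene B4 and vitamin E, read 8.84 and 8.79 on the WT-labelled arrays against 8.91 and 8.82 on the KO-labelled ones, and the genotypes overlapped. Cyp4f13 read 8.10 and 8.02 against 8.09 and 8.08, also with overlap. Their mean differences were 0.05 (SE 0.08, limma adjusted p = 0.761) and 0.03 (SE 0.08, limma adjusted p = 0.862).

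Cyp4f15 read 9.28 and 9.29 on the WT-labelled arrays against 9.11 and 9.06 on the KO-labelled ones. Its KO-labelled values were the lower at both ages, by 0.17 and 0.23, without passing (SE 0.08, limma adjusted p = 0.121). Cyclic loess put it past the threshold, with -0.22 and an adjusted p of 0.020. Non-overlap of the genotypes by itself was common: 54.8% of all genes tested showed it, and 6 of the 8 Cyp4 genes did. Both KO-labelled arrays were the lower for 4 of the 8, against 25.7% of all genes, and the higher for 2, against 29.1%.

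**Figure D1:**
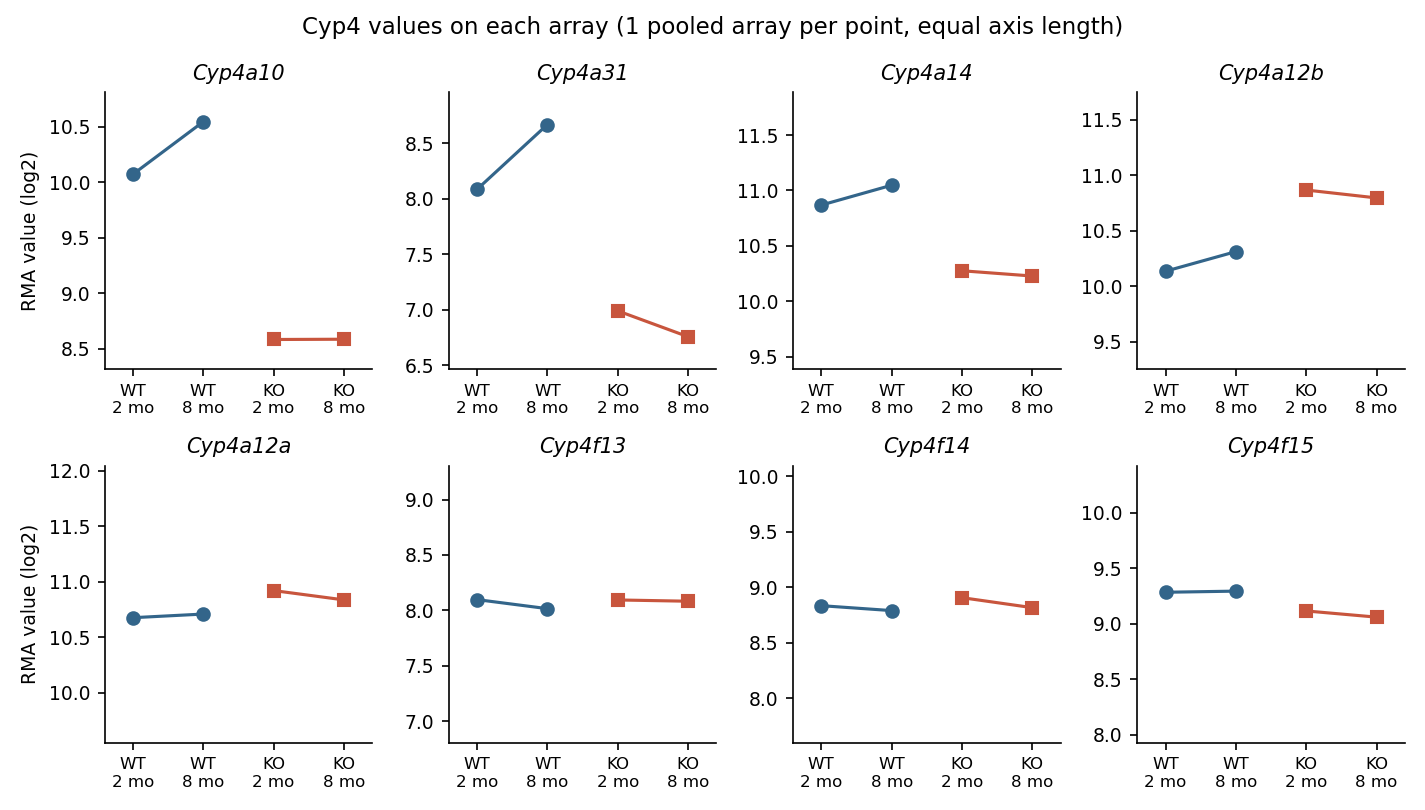
Value of each of the 8 Cyp4 genes on the 4 arrays, as RMA values on the log2 scale, with circles for WT-labelled and squares for KO-labelled arrays at 2 and 8 months and lines joining the ages. Each point is 1 pooled array, and all panels span the same length of the axis, so the steps of Cyp4a10 (10.07 and 10.55 against 8.58 and 8.59) and Cyp4a31 can be set against the flat Cyp4f13.

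Taken as groups, the 5 measured Cyp4a genes had a median KO minus WT of -0.59 at 2 months and -0.82 at 8 months, and the 3 Cyp4f genes of -0.003 and 0.03. Over all 8 the medians were -0.09 and -0.10, against 0.01 and 0.00 over all genes tested. The median of 8 hides the spread, which at 8 months ran from -1.96 for Cyp4a10 to 0.48 for Cyp4a12b.

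**Figure D2:**
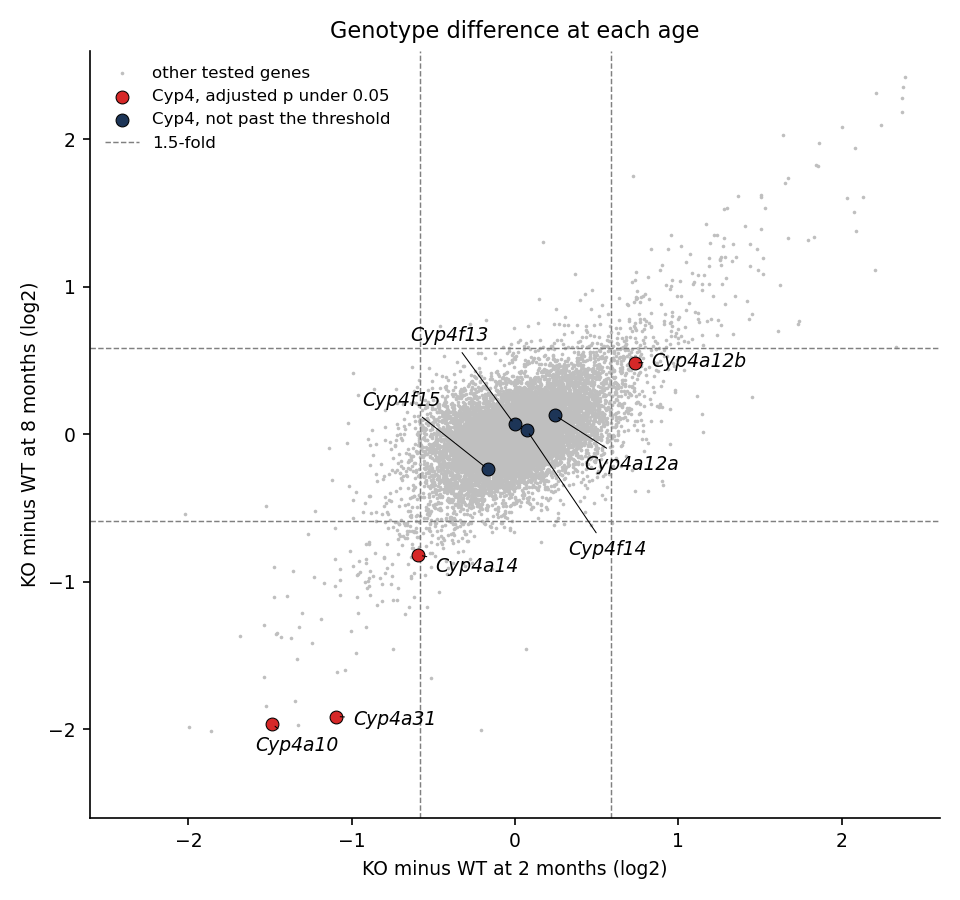
KO minus WT on the log2 scale at 2 months (horizontal) and at 8 months (vertical) for all tested genes in grey and the 8 Cyp4 genes in colour, red where the adjusted p was under 0.05, with dashed lines at 1.5-fold and 19 genes beyond the axes. Cyp4a10 and Cyp4a31 lie at the lower left at -1.49 and -1.96 and at -1.10 and -1.91, Cyp4a14 past the dashed lines nearer the centre and Cyp4a12b at the upper right.

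The Cyp4a genes that fell are neighbours. In the order of the RefSeq gene table on chromosome 4, the members follow as Cyp4a12a, Cyp4a12b, Cyp4a14, Cyp4a10, Cyp4a31 and Cyp4a32. The gene that rose and the 3 that fell thus stand side by side among the measured members. Of the 8 nearest flanking genes with a probe set of 1 symbol, 4 on each side, 5 were tested, with mean differences from -0.17 to 0.30. None of the 5 passed limma's adjusted threshold, and 1 had an unadjusted p under 0.05 (25% of all genes), Efcab14, at 0.37 and 0.23 (adjusted p = 0.0918). Cyp4b1, the P450 gene next to Cyp4a32 among those measured, was at 0.04 and 0.18.

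On chromosome 17 Cyp4f15 lies apart from Cyp4f14 and Cyp4f13, with zinc finger genes between them. Of these, Zfp871 was at -0.14 and -0.37 (adjusted p = 0.0785) and Zfp799 at 0.21 and 0.28 (adjusted p = 0.265). Other Cyp4 genes were dim: 7 of 10 listed had a probe set of 1 symbol, and 2 exceeded the filter. Neither Cyp4b1 (unadjusted p = 0.402) nor Cyp4f16 (unadjusted p = 0.804) passed. The leukocyte gene Cyp4f18 read 2.87 and 2.64 in WT and 3.24 and 2.88 in KO, under the filter of 3.34.

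**Figure D3:**
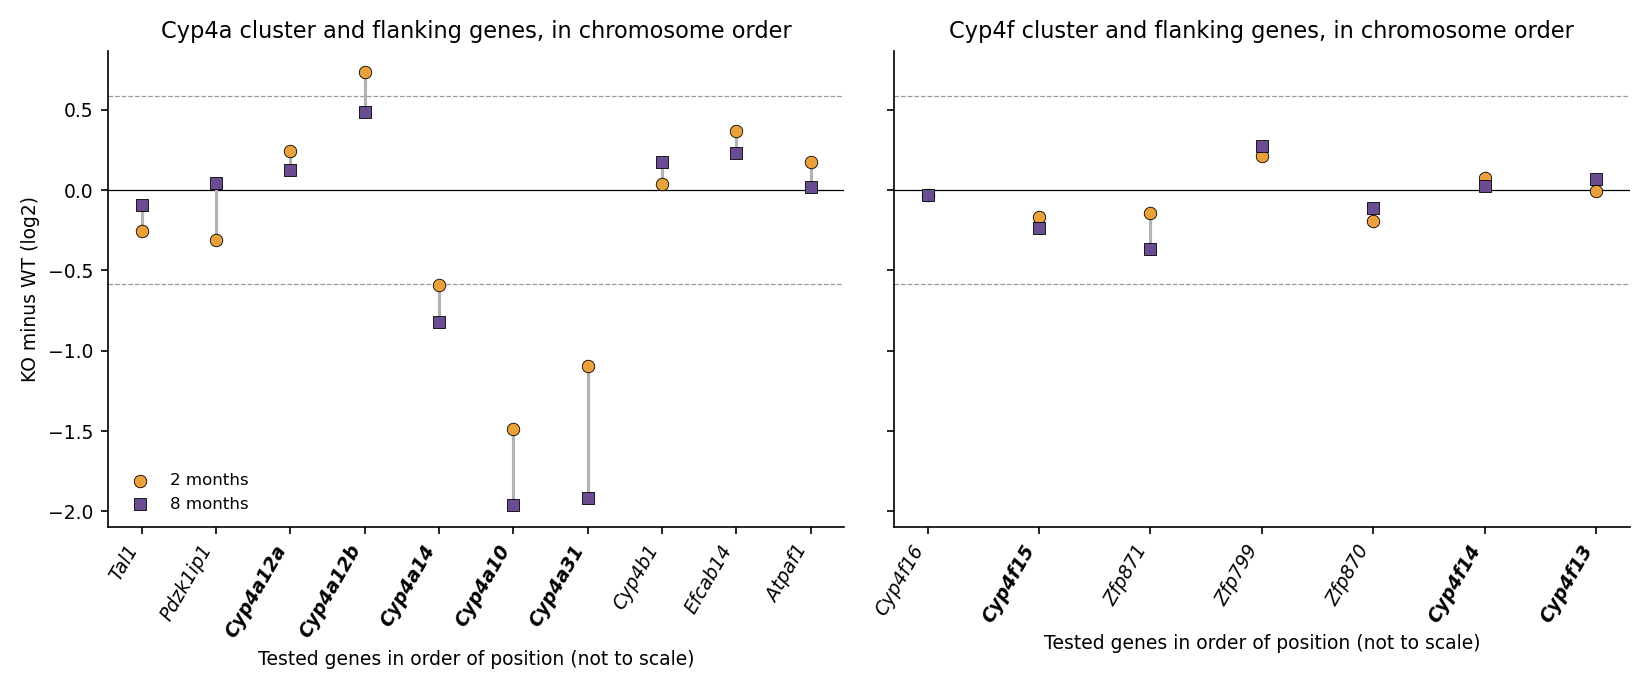
KO minus WT on the log2 scale at 2 months (circles) and 8 months (squares) for the tested genes in and beside the Cyp4a and Cyp4f clusters, in chromosome order and not to scale, with Cyp4 members of the report in bold and dashed lines at 1.5-fold. Cyp4a14, Cyp4a10 and Cyp4a31 lie below -0.59 at both ages, Cyp4a12b is the highest in the left panel, and the genes that are no members lie between -0.37 and 0.37.

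No Cyp4 gene passed the limma test for age, with 1 of 8, Cyp4a10, at an unadjusted p under 0.05. Its mean change from 2 to 8 months was 0.24 (SE 0.10, unadjusted p = 0.0355, adjusted p = 1), and 0.00836% of all genes passed for age, with 3.6% at an unadjusted p under 0.05. The ages differed within genotypes in a way that the mean conceals. In the WT-labelled arrays Cyp4a31 was higher at 8 months by 0.58, just under 1.5-fold, Cyp4a10 by 0.47 and Cyp4a14 and Cyp4a12b by 0.18 each. In the KO-labelled arrays the same genes differed by -0.23, 0.002, -0.05 and -0.07.

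Among 11963 genes, Cyp4a31 had the 26th and Cyp4a10 the 75th highest difference, 8 minus 2 months, between the WT-labelled arrays. The genotype difference was accordingly larger at 8 than at 2 months for each gene that fell, by 0.47 for Cyp4a10, 0.82 for Cyp4a31 and 0.23 for Cyp4a14. With 1 array per group this change cannot be tested, since it is the only residual the fit has. None of the 8 genes was 1.5-fold apart between the ages in either genotype. Of all genes 0.652% were in each, with 0.209% higher and 0.443% lower at 8 months in WT and 0.376% higher and 0.276% lower in KO.

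The steps around the hydroxylases were measured in lists of genes. For the counts of calls in this and every later list, 6.81% of all genes tested were called higher and 4.26% lower. The list around electron supply held cytochromes b5, their reductases and the haem-binding P450 partners Pgrmc1 and Pgrmc2, whereas the P450 reductase Por had no probe set of 1 symbol and is not reported. Of its 7 tested genes, 1 rose and 6 did not pass, with a median difference of 0.18 at 2 months and 0.23 at 8 months. The one that rose was Cyb5b, the outer mitochondrial membrane form of cytochrome b5 and so no microsomal donor, at 0.64 and 0.43 (limma adjusted p = 0.000961). Cyb5a, the other cytochrome b5 of the list, was at 0.25 and 0.08 and did not pass (limma adjusted p = 0.207). Cyb5r1 was at 0.07 and 0.49, and Pgrmc1 and Cyb5r4 had the lowest mean differences, 0.05 and 0.09.

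Of 7 dehydrogenases that can oxidise omega-hydroxy acids and their aldehydes, 3 rose, 1 fell and 3 did not pass, and the median gene was at 0.16 and 0.12. Adh4 read 9.82 and 9.86 on the WT-labelled arrays against 10.41 and 10.31 on the KO-labelled ones, without overlap, and rose by 0.52 (limma adjusted p = 0.000727). Aldh3a2, the fatty aldehyde dehydrogenase, rose by 0.41 (adjusted p = 0.00397) and Aldh1a1 by 0.31 (adjusted p = 0.0211). Aldh9a1 fell by 0.26 (adjusted p = 0.0449), and Adh5 was at -0.13 and -0.23.

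Peroxisomal genes that shorten dicarboxylic and very long chain acids were lower more often than higher: of 22 tested, 6 fell and 1 rose, and for 15 no call was made. The median gene of this list was at -0.15 and -0.19. The thioesterase Acot3 fell by 0.61 (limma adjusted p = 0.00707) and the thiolase Acaa1a by 0.48 (adjusted p = 0.0036). The bifunctional enzyme Ehhadh, known for dicarboxylic acids, was at -0.21 and -0.50 and fell by 0.36 on average (adjusted p = 0.0189). Nudt7, which cleaves coenzyme A esters, rose by 0.45 (adjusted p = 0.00255), and Crot was at 0.24 and 0.17.

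Ppara, which encodes the receptor that drives Cyp4a10 and Cyp4a14, read 8.75 and 8.74 on the WT-labelled arrays against 8.33 and 8.17 on the KO-labelled ones, and fell by 0.49 (limma adjusted p = 0.00155). In the list of the receptor, its partners and its ligand supply, 4 of 14 genes fell and 1 rose, while 9 were not called, and the median difference was -0.09 at both ages. The coactivator Ppargc1b and the triglyceride lipase Pnpla2 were the lowest, falling by 0.60 and 0.55. Pparg rose by 0.57, and Ppargc1a was at 0.65 and 0.21 without passing.

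Other genes induced through PPAR alpha numbered 22, of which 9 fell, 2 rose and 11 were not called, and the median gene was at -0.09 and -0.19. The lowest were Angptl4 and the cytosolic thioesterase Acot1, which fell by 1.38 and 1.22, sizes between those of Cyp4a14 and Cyp4a31. The fatty acid transporter Cd36 and the pantetheinase Vnn1 rose by 1.41 and 0.92. This list was drawn up with earlier results of these arrays known, it shares members with the peroxisomal list, and it is no independent evidence of direction.

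Of 17 genes of arachidonate and leukotriene metabolism, pathways that hold substrates of Cyp4a12 and Cyp4f enzymes, 1 was called and 16 were not. Of all genes tested 11.1% were called in either direction. The median gene of the list was at 0.12 and -0.07. The called gene was Cyp2j9, at 0.70 and 0.18, which rose by 0.44 on average (limma adjusted p = 0.0418). Cyp2c38 was at 0.95 and -0.07, and Ephx2 and Hpgd were at -0.16 and -0.31 and at -0.13 and -0.27.

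**Figure D4:**
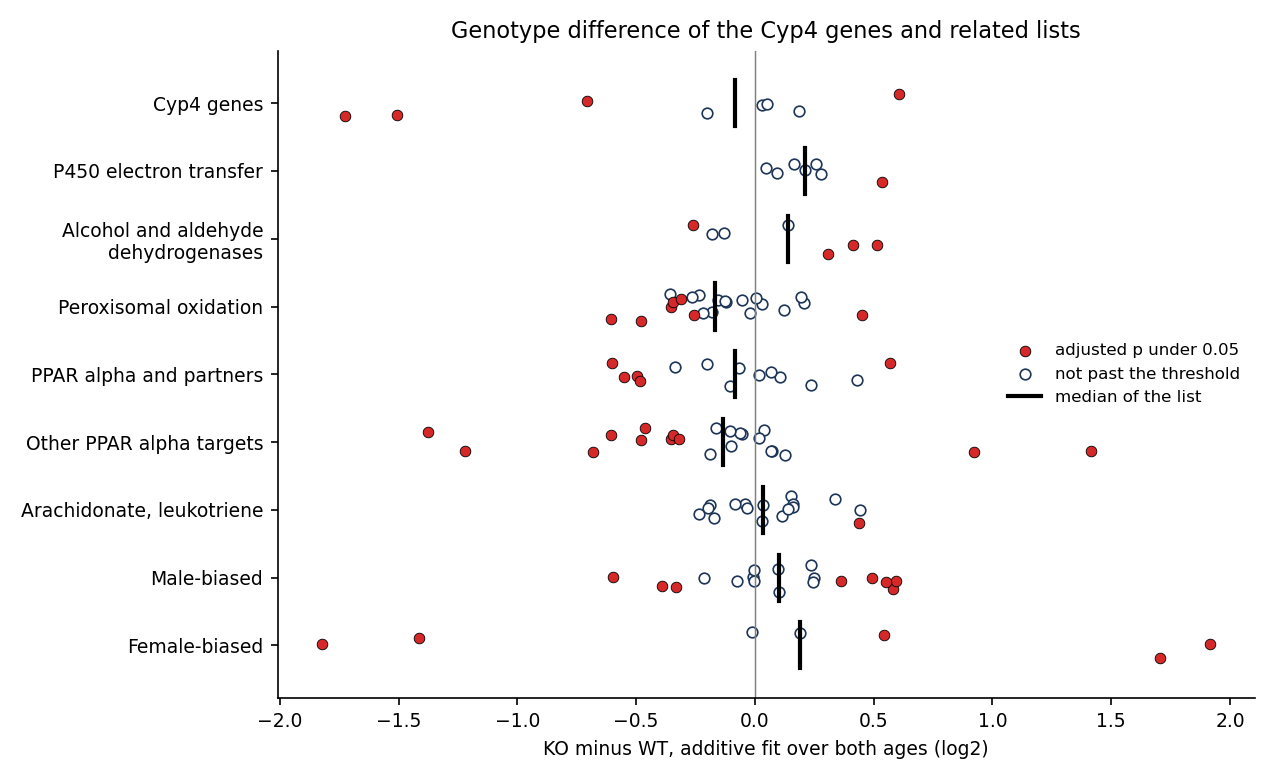
KO minus WT on the log2 scale from the additive fit over both ages, 1 point per tested gene, for the Cyp4 genes and 8 related lists, filled red where the adjusted p was under 0.05, with a vertical bar at each list's median and points spread vertically only for legibility. The Cyp4 row runs from -1.72 to 0.61, and most red points of the peroxisomal row and the row of other PPAR alpha targets lie left of 0.

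Because Cyp4a12 genes are known as male-predominant, sex-linked transcripts were read beside them. Xist, transcribed from the inactive X of females, read 4.42 and 3.08 on the WT-labelled arrays against 2.66 and 2.29 on the KO-labelled ones, and its mean was under the filter. The Y-linked Uty read 6.18 and 6.37 against 6.63 and 6.58, Eif2s3y 7.04 and 7.27 against 7.43 and 7.34, and Kdm5d 5.57 and 5.53 against 5.64 and 5.56. Xist was highest and Uty and Eif2s3y were lowest in WT at 2 months, the array on which Cyp4a12a and Cyp4a12b were also lowest. None of the 3 Y-linked genes tested passed limma's adjusted threshold, and 2 had an unadjusted p under 0.05, against 25% of all genes. The part of the pools' makeup in the Cyp4a12 difference was not tested.

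KO minus WT at 2 months was -1.76 for Xist, 0.73 for Cyp4a12b and -1.49 for Cyp4a10. At 8 months it was -0.79, 0.48 and -1.96, with both Xist values under the filter of 3.34. Male-biased liver genes numbered 18, with 5 that rose, 3 that fell and a median gene at 0.32 and -0.04, where 6.81% of all genes tested rose and 4.26% fell. Selenbp2 and Cyp2u1 were the highest, rising by 0.60 and 0.58, and C6 and C8b fell by 0.60 and 0.39. Among 7 female-biased genes there were 3 that rose and 2 that fell, and the median gene was at 0.50 and 0.16. Cyp2b13 and Cyp2b9 rose by 1.92 and 1.71, and Fmo2 fell by 1.41. Cyp17a1 also passed, with a mean difference of -1.82 that rested on 1 array: it read 6.16 in WT at 8 months, against 3.29 in WT at 2 months and 2.92 and 2.89 in KO, so that KO minus WT was -0.37 and -3.27.

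The growth hormone and androgen axis, which sets male and female patterns of liver P450s, had 1 of 9 genes that rose and 2 that fell, and the median gene was at -0.03 and -0.02. The feedback inhibitors of that axis parted: Cish rose by 0.57 and Socs2 fell by 0.82. Igfals fell by 0.49, and Jak2 was at 0.62 and 0.06.

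Markers of liver zones and cell types were read on the same arrays, since Cyp4a10 and Cyp4a14 are known as pericentral genes and fewer cells of a type cannot be told apart from less RNA per cell in bulk tissue. Beside the counts for these markers, 6.81% of all genes tested were called higher and 4.26% lower. Of 11 pericentral markers, 2 rose and 2 fell, with a mean level of 8.26 and 8.32 in WT and 8.35 and 8.32 in KO. Lgr5 and Rgn rose by 0.63 and 0.40, and Cyp27a1 and Slc1a2 fell by 0.46 and 0.31. The pericentral marker Glul was at 0.20 and 0.03 and Cyp2e1 at -0.02 and -0.16.

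Of 7 periportal markers, 1 rose and 2 fell, with mean levels of 10.18 and 10.12 against 10.20 and 10.17. Hsd17b13 rose by 0.65, Arg1 and Pck1 fell by 0.32 and 0.28, and Cdh1 was at 0.13 and 0.10. None of 9 hepatocyte markers passed in limma, and 3 had an unadjusted p under 0.05, a share near the 25% of all genes. Their mean level was 12.00 and 12.05 in WT and 12.00 and 11.95 in KO, from Cps1 and Apoa1 with -0.24 and -0.23 to Ttr and Tat with 0.13 and 0.11.

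Of 7 stellate cell markers, 1 rose and 2 fell, with mean levels of 6.06 and 6.01 against 5.80 and 5.71. The median marker was at 0.12 and -0.10, and at both ages 3 were higher and 2 lower. Acta2 fell by 1.94 and Col1a1 by 0.56, Reln rose by 0.29, and Pdgfrb was at 0.12 and 0.10. Of 7 Kupffer cell markers 2 rose, Cd5l by 0.72 and Vsig4 by 0.49, with mean levels of 5.52 and 5.33 against 5.80 and 5.69. Clec4f was at -0.04 and 0.06 and C1qa at -0.11 and 0.43, and neither passed. At both ages 5 of the 7 were higher, as were 4113 of the 11963 genes tested. The part of cell makeup in the Cyp4 differences was not tested.

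Genes whose pattern over the 4 arrays was most like that of a Cyp4 gene were found by the root mean square distance of their values after each gene's mean was subtracted. For Cyp4a10 the closest outside the family were Gm15441, at a distance of 0.10 log2 units, Cyp3a13 at 0.15, Depp1 at 0.17, Zbtb16 at 0.18 and Lrit1 at 0.20. Gm15441, a predicted gene, read 4.62 and 5.24 on the WT-labelled arrays against 3.27 and 3.43 on the KO-labelled ones. Within the family Cyp4a31 was at 0.14 from Cyp4a10 and Cyp4a14 at 0.52.

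For Cyp4a12b the closest were Zwint, Mpi, Tmem167, Cd300e and Pde12, at 0.02 to 0.03, all closer than Cyp4a12a at 0.22. The closest to Cyp4f14 were Kdm5d, Lysmd3, Scrn3, Ap1b1 and Adam17, at 0.003 to 0.008, where many genes with small differences crowd. Likeness over 4 arrays is a description, and the arrays share their pools and normalization across all genes.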

How the data were processed

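The authors deposited log2 values. The submitters' processing notes name Affymetrix Expression Console 1.0v and RMA, a method that corrects background, quantile normalizes arrays and summarises probes, and that compresses differences of dim genes. The log base is RMA's, and the annotation build was not given in the sources used here. Of 35556 probe sets, 21789 carried 1 symbol and were used. Probe sets of 1 gene were averaged (999 genes), and genes whose mean exceeded the 40th percentile, 3.34, were tested: 11963 genes. Differences within an age or genotype are values without a test, called at 1.5-fold. The additive model of genotype and age was fitted with lmFit and eBayes (intensity trend, prior of 11.3 degrees of freedom) in limma 3.58.1, R 4.3.3. Tested on simulated data, it recovered a median of 89% of 1.5-fold and 100% of 2-fold changes. The median share of false calls was 17.1% and the highest 24.7%, both above the nominal share. Calls of genes as higher or lower are therefore less certain than their adjusted p states, above all those near the threshold. Arrays have no read depth, and their number limits the precision. The 10 genes and all lists were chosen with earlier results of these data known. Named genes are all members, the 2 highest and 2 lowest of each related list (some lists appear only in part), the sex-linked transcripts, Sirt6, Ppara and the 5 nearest patterns. Any further gene was named after its values were seen. Alternatives changed the scaling, filter, trend, probe set rule, model terms and fold.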

Additional observations from a re-analysis of the deposited data

Results flagged for a closer look

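For 5 Cyp4 genes the change from 2 to 8 months had opposite signs in the 2 genotypes, and for 1 the genotype difference had opposite signs at the 2 ages. Each sign rests on 1 pooled array per group, and none of these differences was tested. Of the 11963 genes tested, 4113 were higher and 3805 lower in KO at both ages. How many of all genes had opposite signs with age was not counted, so the 5 Cyp4 genes cannot be set against a background. Cyp4a31 stood furthest apart, higher at 8 months by 0.58 in the WT-labelled arrays and at -0.23 in the KO-labelled arrays. In WT and KO, Cyp4a14 was at 0.18 and -0.0475, Cyp4a12b at 0.18 and -0.0711, Cyp4a12a at 0.0328 and -0.084 and Cyp4f15 at 0.0101 and -0.0557. The genotype difference of Cyp4f13, KO minus WT, was -0.0031 at the younger and 0.067 at the older age.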

How the results depend on the processing

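Across 9 alternatives each, Cyp4a10 (-1.75 to -1.69), Cyp4a31 (-1.56 to -1.47), Cyp4a14 (-0.73 to -0.68) and Cyp4a12b (0.59 to 0.64) kept their direction and an adjusted p of at most 0.0163 in limma. Cyp4f13 turned to -0.0072 when arrays were quantile normalized again, and the age difference of Cyp4f15 to 0.0041 under cyclic loess, where Cyp4a12a and Cyp4f15 passed for genotype. The causes were not tested. All genes called for genotype numbered 1325, 752 without the filter, 846 without the trend and 1967 under cyclic loess. For age 1 gene was called, 2 under median centring, with probe sets kept apart or by the brightest probe set, 17 under cyclic loess and 0 under quantile normalization, without the filter, without the trend or without the genotype term, with 431 at an unadjusted p under 0.05. Genes called higher made up 61.5% of calls, 68.6% under median centring, 55.3% under cyclic loess and 52.7% under quantile normalization. At 2-fold in place of 1.5-fold, 166 genes (762) differed at 2 months, 150 (519) at 8 months, 110 (340) at both, 15 (78) with age in WT and 1 (78) in KO, and 2 Cyp4 genes in place of 4 at 2 months, 2 in place of 3 at 8 months and 2 in place of 3 at both. Median centring left 3 Cyp4 genes past 1.5-fold at 2 months and 2 at both ages. With age 120 genes differed in KO without the filter, and with the filter at the 60th percentile 41 in WT and 25 in KO. No paired analysis was possible because each group holds 1 array, and for the same reason no array could be left out of the test. With 1 pool per group, no spread between pools is known.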

Other observations

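Several Cyp2c genes, which encode arachidonate epoxygenases and other oxidases of the liver, were lowest in the WT-labelled array at 2 months. Cyp2c39 read 9.76 there and 10.42, 10.55 and 10.30 in WT at 8 months and KO at 2 and 8 months, and Cyp2c38 read 5.73 against 6.39, 6.68 and 6.32. KO minus WT was 0.79 for Cyp2c39 at 2 months and -0.12 at 8 months. Neither gene passed for genotype (limma adjusted p = 0.181 and 0.138). Cyp4a10, Cyp4a31, Cyp4a14 and Cyp4a12b were also lower in WT at 2 than at 8 months. Of 6 endothelial markers 1 rose, Cdh5 by 0.45, and none of 3 cholangiocyte and 2 leukocyte markers passed in limma, with 0 and 1 at an unadjusted p under 0.05. A probe set that carries the symbols of Cyp4v3 and its neighbour Klkb1 read 9.98, 10.06, 10.15 and 10.06 on the younger and older WT-labelled and then the younger and older KO-labelled array, and it cannot be assigned to either gene.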
